A study of Lemna aequinoctialis with 6 samples.

Results

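The transcripts described here are those of gibberellin and brassinosteroid genes in Lemna aequinoctialis, a duckweed, which is a small floating aquatic plant. They were chosen by the wording of the gene descriptions in the list of changed transcripts that the authors deposited: 19 of its 5093 transcripts matched, and they belonged to 9 of its 2424 Trinity genes (Trinity assembles transcripts from reads and groups them into genes). RNA of 3 control samples was compared with RNA of 3 samples given indole-3-propionic acid (IPA), an indole compound related in structure to auxin, in a study of culture growth and useful metabolites. The labels gave no genotype, age, dose or duration for either group, nor whether replicates came from separate cultures. The set is almost wholly a gibberellin one: 18 transcripts of 8 genes had gibberellin descriptions, 1 transcript of 1 gene had a brassinosteroid description, and 0 listed transcripts were described as DELLA, scarecrow-like, BZR1, ent-copalyl or gibberellin 20-oxidase. Genes with such names could be present among the transcripts outside the list, for which no descriptions were used here.

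Gibberellins are diterpenoid growth hormones. Plastid enzymes cyclise geranylgeranyl diphosphate to ent-kaurene, cytochromes P450 oxidise it, and soluble dioxygenases finish the hormone: 3-beta-dioxygenases make the active form and 2-beta-dioxygenases inactivate it. The receptor GID1 binds the active hormone and then the DELLA repressors, which are degraded, and in Arabidopsis and rice the hormone in turn lowers synthesis genes and raises 2-beta-dioxygenase genes. Brassinosteroids are steroid hormones made by cytochromes P450 and perceived at the cell surface by a leucine-rich repeat (LRR) receptor kinase. Both hormones are known for promoting cell elongation.

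The libraries held 30149649 to 45233584 reads, recovered from the deposited values as processing explains, and 3 reads corresponded to 0.0614 to 0.0954 normalised read counts. Transcripts of green tissue were present in every library: the 43 listed chlorophyll a-b binding transcripts together took 0.0969 to 0.159% of reads in control and 0.608 to 0.788% in IPA. The 4 listed transcripts of the RuBisCO small subunit took 0.0333 to 0.0456% in control and 0.105 to 0.154% in IPA. The 26 listed photosystem subunit transcripts went the other way, with 0.478 to 0.683% in control and 0.250 to 0.300% in IPA, so these lists did not move together. They hold only transcripts that the authors listed as changed between these groups, so their shifts do not stand for green tissue as a whole. The 4 listed transcripts named after proteins encoded at ribosomal RNA loci (ART2 and TAR1) took 6.62 to 17.4% of reads in control and 2.31 to 3.97% in IPA, and their part in the results was not tested. In bulk samples of whole plants, fewer cells of a type and less RNA per cell cannot be told apart.

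Because the list was chosen on this same contrast, the differences of its members between groups are given as a description and no test is drawn from them. Levels are normalised read counts, given per library in the order of replicates 1, 2 and 3, with the mean ± SD (n = 3 in each group). Log2 differences are IPA minus control ± SE, from limma on log2(value + 0.5), which understates differences of low transcripts. Of the 19 transcripts, 12 were higher and 7 lower in IPA. All 19 had groups that did not overlap, as had 32.9% of all 78722 transcripts tested. In the fit across all transcripts 17 of the 19 passed a false discovery rate (FDR) of 0.05, 10 of them higher and 7 lower in IPA, against 8.37% of all transcripts tested (4.49% higher and 3.87% lower). The median log2 difference was 1.03 over the members and 0.02 over all transcripts tested. The count of members past the threshold was 11, 4 and 6 without IPA 1, 2 and 3, and 6 without control 2. Scaled by library totals instead, the median of all transcripts moved to 0.25 and 84.1% of all calls were higher in IPA against 53.7%, while 19 members passed, again 12 higher and 7 lower.

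**Figure D1:**
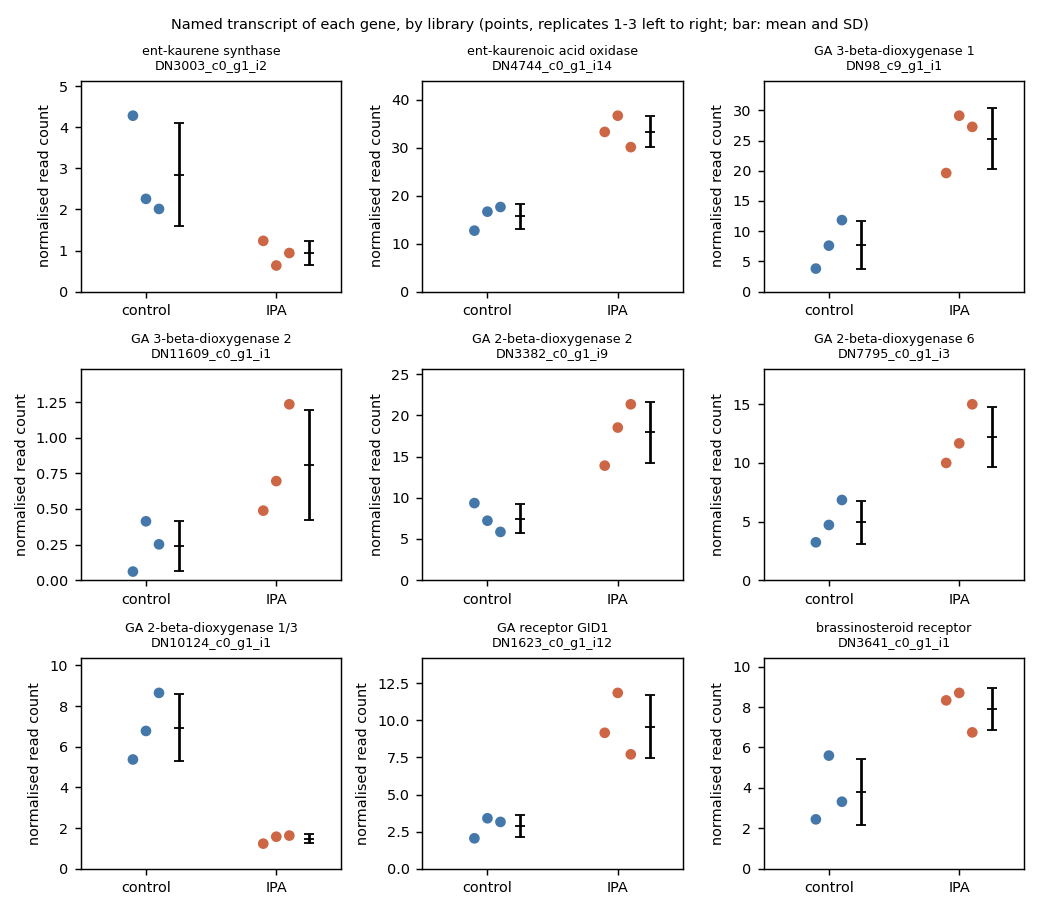
Normalised read count of the named transcript of each of the 9 genes in the 3 control (blue) and 3 IPA (orange) libraries, with the mean and SD beside the points (linear axes from 0, with a range of their own in each panel). Ent-kaurene synthase and the 2-beta-dioxygenase 1/3 gene lay lower in IPA, and the other 7 transcripts lay higher in every IPA library than in any control library.

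Among synthesis genes, ent-kaurenoic acid oxidase (DN4744_c0_g1), a cytochrome P450 that carries the precursor to the first gibberellin, was represented by a single transcript. It stood at 12.7, 16.7 and 17.6 in the controls and at 33.3, 36.7 and 30.1 in IPA. The groups were well apart and each was narrow, at 15.7 ± 2.61 and 33.4 ± 3.28, a log2 difference of 1.08 ± 0.19. The IPA libraries differed 1.22-fold among themselves, the smallest such spread among the 19 members.

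The 3-beta-dioxygenases catalyse the last step to the active hormone, and in pea and rice plants that lack one are dwarf. Gibberellin 3-beta-dioxygenase 1 (DN98_c9_g1, a single transcript) stood at 3.80, 7.60 and 11.8 in the controls and at 19.6, 29.1 and 27.3 in IPA. Its means were 7.74 ± 4.01 and 25.3 ± 5.03, and its log2 difference of 1.76 ± 0.34 was the largest upward one among the members in this fit. In the authors' deposited values it was 1.71, slightly below DN1623_c0_g1_i12 and DN11609_c0_g1_i1 at 1.74 each. The control libraries differed 3.11-fold among themselves, with control 1 lowest, while the IPA libraries differed 1.48-fold. The transcript passed the threshold with all libraries and in 3 of 6 fits that left out a library.

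Gibberellin 3-beta-dioxygenase 2 (DN11609_c0_g1) was the scarcest member. It had 2, 13 and 11 reads in control and 17, 34 and 50 in IPA, or 0.0604, 0.413 and 0.252 against 0.488, 0.696 and 1.24 normalised read counts. The groups did not overlap, at 0.242 ± 0.177 and 0.807 ± 0.386, but their edges were close and control 1 lay below the value of 3 reads. Its log2 difference was 0.80 ± 0.26 and did not pass the threshold in the fit across all transcripts. The value was sensitive to scale because counts were few: it was 1.48 with a pseudocount of 0.1 and 1.74 with edgeR on the recovered reads.

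Ent-kaurene synthase (DN3003_c0_g1), the plastid enzyme that closes the ent-kaurene ring system, went the other way in its listed transcript. That transcript stood at 4.29, 2.26 and 2.01 in the controls and at 1.24, 0.635 and 0.939 in IPA, with means of 2.85 ± 1.25 and 0.936 ± 0.300 (log2 -1.18 ± 0.28). Control 1 stood well above the other control libraries. The listed transcript passed the threshold with all libraries and in 3 of 6 fits that left out a library.

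The listed transcript was 1 of 16 assembled for that gene and held 5.11 ± 1.32% of the gene's summed value in control and 2.39 ± 0.679% in IPA. Of the 15 other transcripts 14 were lower in IPA and 1 was higher, from -0.77 to 0.04 on the log2 scale, none passed the threshold, and the groups of 5 did not overlap. The sum over all 16 was 65.2, 47.5 and 50.2 in control and 41.2, 38.3 and 37.5 in IPA, so that the groups did not overlap but the difference was small (54.3 ± 9.53 against 38.99 ± 1.95, log2 -0.46 ± 0.17) and did not pass the threshold. Control 1 again was highest, and without it the sum differed by -0.32 on the log2 scale. Scaled by library totals it differed by -0.16, beside a median of 0.29 over all gene sums. The listed transcript thus stood for a small share of the gene's reads.

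**Figure D2:**
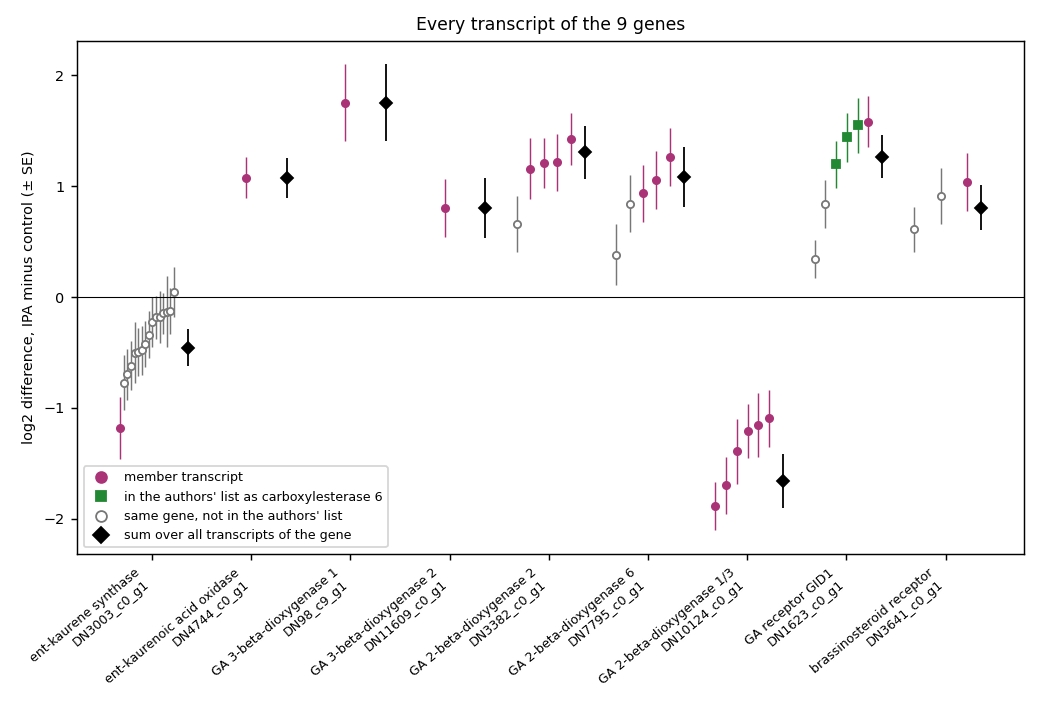
Log2 difference between IPA and control (± SE) of every transcript of the 9 genes. Members are filled, unlisted transcripts open and the gene sum a diamond. Squares mark the other listed transcripts of DN1623_c0_g1, described as carboxylesterase 6. All 6 transcripts of the 2-beta-dioxygenase 1/3 gene lay below -1, while the ent-kaurene synthase transcripts spread from -1.18 to 0.04.

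Gibberellin 2-beta-dioxygenases, which inactivate the hormone, made up 13 of the 19 members and came from 3 genes that did not move together. Transcripts of 2 genes were higher in IPA and all those of the third were lower. The 2-beta-dioxygenase 2 gene (DN3382_c0_g1) had 4 of its 5 transcripts listed. The one with the highest mean, DN3382_c0_g1_i9, stood at 9.35, 7.22 and 5.86 in the controls and at 13.9, 18.5 and 21.4 in IPA (7.48 ± 1.76 and 17.9 ± 3.76, log2 1.21 ± 0.22). In this gene control 1 was the control library nearest to IPA, in each of the 4 members. The log2 differences of the 4 members ran from 1.16 to 1.43, and that of the unlisted transcript was 0.66 ± 0.25. Summed over all 5 transcripts the gene stood at 29.2, 22.7 and 20.3 in the controls and at 43.4, 60.6 and 80.3 in IPA, a log2 difference of 1.31 ± 0.24. Of 6 fits that left out a library, DN3382_c0_g1_i9 passed the threshold in 3 and the gene sum in 4.

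The 2-beta-dioxygenase 6 gene (DN7795_c0_g1) had 3 of 5 transcripts listed. In rice the enzyme of this name belongs to a class that acts on early gibberellin precursors. Its transcript DN7795_c0_g1_i3 stood at 3.23, 4.71 and 6.84 in the controls and at 9.997, 11.7 and 15.0 in IPA (4.93 ± 1.81 and 12.2 ± 2.55, log2 1.27 ± 0.26). All 5 transcripts had their lowest value in control 1 and their highest in IPA 3. The members differed by 0.94 to 1.27 on the log2 scale, of which the smallest, DN7795_c0_g1_i6, did not pass the threshold. The 2 unlisted transcripts differed by 0.38 and 0.84. The gene sum was 11.3, 17.8 and 23.8 in control and 29.8, 35.3 and 45.7 in IPA (log2 1.08 ± 0.27), and the members' share of it was 71.6 ± 0.458% in control and 77.2 ± 1.52% in IPA. Of 6 fits that left out a library, DN7795_c0_g1_i3 passed the threshold in 3 and the gene sum in 2.

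The third gene, DN10124_c0_g1, was described as 2-beta-dioxygenase 1 in 3 transcripts and as 2-beta-dioxygenase 3 in the other 3. Whether these names stand for different enzymes was not tested. All 6 of its transcripts were listed and all 6 were lower in IPA. The transcript with the highest mean, DN10124_c0_g1_i1, stood at 5.37, 6.77 and 8.65 in the controls and at 1.24, 1.58 and 1.63 in IPA (6.93 ± 1.64 and 1.48 ± 0.214). Its log2 difference of -1.89 ± 0.22 was the largest downward one among the members, and the highest IPA value was less than the lowest control value by a wide margin. It passed the threshold in all 6 fits that left out a library.

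Within this gene the log2 differences varied in size, with SEs of 0.22 to 0.29, and whether the transcripts differed from each other was not tested. The 2 transcripts matched to the UniProt entry Q9SQ80 differed by -1.89 and -1.70 on the log2 scale, and the other 4 by -1.39 to -1.10. Those 2 held 50.3, 35.5 and 39.8% of the gene sum in control and 28.3, 28.8 and 36.2% in IPA, and IPA 3 lay above control 2, so that the shares overlapped. The gene sum was 20.5, 33.4 and 36.5 in control and 7.41, 9.17 and 10.5 in IPA (30.1 ± 8.50 and 9.01 ± 1.53, log2 -1.66 ± 0.24). Control 1 was the lowest control, and the control library nearest to IPA, in each of the 6 transcripts.

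**Figure D3:**
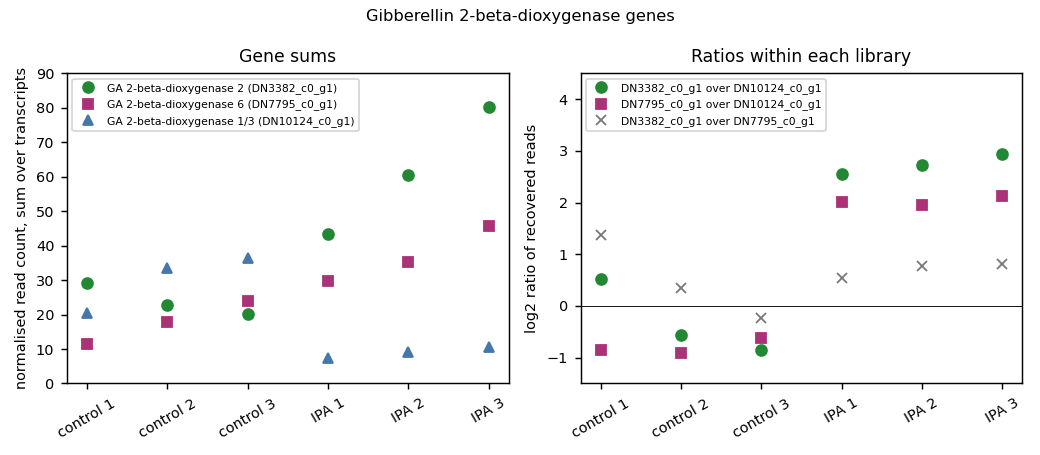
Left, normalised read count summed over the transcripts of each 2-beta-dioxygenase gene in the 6 libraries; right, log2 ratio of the recovered reads of gene pairs within each library, where scaling cancels. The ratios over DN10124_c0_g1 lay between -0.90 and 0.51 in control and between 1.94 and 2.94 in IPA, while the ratio of the other two genes overlapped between groups.

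Ratios of these genes within a library do not depend on how libraries were scaled; their size in a library depends on transcript length, so only differences between libraries are read. The log2 ratio of 2-beta-dioxygenase 2 reads to those of the DN10124_c0_g1 gene was 0.51, -0.56 and -0.85 in control and 2.55, 2.72 and 2.94 in IPA, a difference of 3.04 between the means. For 2-beta-dioxygenase 6 over DN10124_c0_g1 it was -0.85, -0.90 and -0.62 in control and 2.01, 1.94 and 2.13 in IPA, a difference of 2.82. Both ratios had groups far apart, which follows from the choice of genes listed as higher and as lower in this same contrast. The ratio of 2-beta-dioxygenase 6 to DN10124_c0_g1 varied little within each group (SD 0.15 and 0.09). The ratio of the 2-beta-dioxygenase 2 and 6 genes to each other was 1.37, 0.35 and -0.23 in control and 0.54, 0.78 and 0.81 in IPA. That ratio overlapped between groups and was more spread over the control libraries (SD 0.81) than over the IPA libraries (SD 0.15).

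The gene DN1623_c0_g1 had 6 transcripts, of which 1 was described as gibberellin receptor GID1. That transcript, DN1623_c0_g1_i12, stood at 2.05, 3.40 and 3.16 in the controls and at 9.16, 11.9 and 7.71 in IPA (2.87 ± 0.720 and 9.58 ± 2.10, log2 1.58 ± 0.23). Every IPA library lay above every control library by a wide margin, and the transcript passed the threshold in all 6 fits that left out a library. The authors' list held 3 more transcripts of this gene, described as Probable carboxylesterase 6, and GID1 proteins belong to the same protein family as plant carboxylesterases. Which name suits the gene was not tested. Those 3 transcripts differed by 1.20, 1.44 and 1.55 on the log2 scale, and the 2 unlisted ones by 0.34 and 0.84, of which the latter passed the threshold.

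The GID1-described transcript was a small share of its gene, 8.94 ± 1.34% in control and 12.3 ± 0.743% in IPA. The 4 listed transcripts together held 64.7 ± 3.35% and 77.4 ± 1.91%. Summed over all 6 transcripts, the gene stood at 26.5, 32.8 and 36.4 in the controls and at 79.7, 91.3 and 62.3 in IPA, a log2 difference of 1.27 ± 0.19. The 5 transcripts other than the member differed in the same direction, with a summed log2 difference of 1.21.

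The sole brassinosteroid member was a transcript of DN3641_c0_g1 described as a brassinosteroid LRR receptor kinase, the class that binds the hormone outside the cell. It stood at 2.44, 5.60 and 3.32 in the controls and at 8.33, 8.70 and 6.75 in IPA (3.79 ± 1.63 and 7.93 ± 1.04, log2 1.03 ± 0.26). Control 2 came close to IPA 3. The 2 unlisted transcripts of the gene differed by 0.61 and 0.91 without passing the threshold, in that order DN3641_c0_g1_i2 and DN3641_c0_g1_i6. The more abundant of them, DN3641_c0_g1_i2, stood at 8.57, 11.5 and 11.1 in the controls and at 18.6, 17.3 and 12.7 in IPA. The gene sum was 14.4, 23.1 and 17.1 against 34.5, 33.2 and 27.5 (log2 0.81 ± 0.20). The sum passed the threshold with all libraries and in 1 of 6 fits that left out a library, the fewest among the 7 sums that passed.

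**Figure D4:**
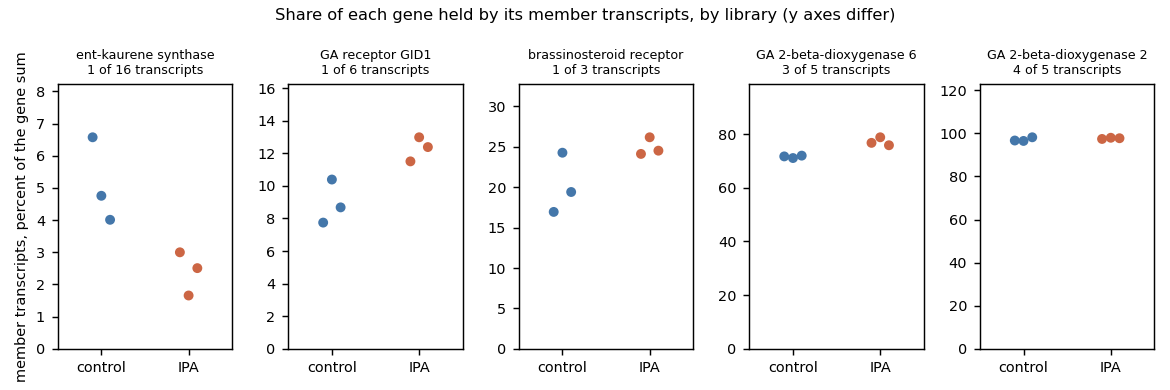
Percent of a gene's summed normalised read count held by its member transcripts in each library, for the 5 genes that had transcripts outside the members (axes start at 0 and differ). The share was below 7% for ent-kaurene synthase and above 96% for 2-beta-dioxygenase 2.

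Taken over whole genes, 7 of the 9 sums passed the threshold, 6 higher and 1 lower in IPA, against 10.3% of 27203 gene sums tested (5.65% higher and 4.68% lower). All 9 had groups that did not overlap, as had 34.8% of all gene sums. The median log2 difference was 1.08 over the 9 sums and 0.05 over all gene sums. The count was 2 without control 2, 2 without IPA 2 and 4 without IPA 3. The sums of DN10124_c0_g1 and DN1623_c0_g1 passed the threshold in each fit that left out a library.

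The rule had 2 limits, those of the authors' deposited table, where the smallest absolute log2 fold change was 1.00 and the largest FDR 0.05. In the authors' deposited table the member nearest to the first limit was DN7795_c0_g1_i6, at 1.05, and the member nearest to the second was DN11609_c0_g1_i1, with an FDR of 0.0305. Just outside the list, by the log2 differences computed here, were DN3641_c0_g1_i6 at 0.91, DN7795_c0_g1_i14 at 0.84 and DN1623_c0_g1_i14 at 0.84. The 22 transcripts of the 9 genes outside the authors' list had a median of -0.16, with 8 higher and 14 lower in IPA, and 15 of them were ent-kaurene synthase transcripts.

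The control libraries had a wider fold range than the IPA libraries in 15 of the 19 members. The same count over all transcripts was not computed, so whether that spread was particular to the members was not tested. Over all transcripts tested, log2 values correlated at 0.936 to 0.974 between control libraries and at 0.968 to 0.988 between IPA libraries. These ranges overlap, and a correlation is a different measure from a fold range. Control 3 correlated with IPA 1 at 0.961, above its value of 0.936 with control 1 and below its 0.974 with control 2. Control 1 was the control farthest from the IPA mean in 9 members, control 3 in 8 and control 2 in 2. For control 1 these were the synthesis genes, the transcripts described as receptors and 2-beta-dioxygenase 6. For control 3 and control 2 they were the 2-beta-dioxygenases 2 and 1/3. On the IPA side, IPA 3 was farthest from the control mean in 9 members and IPA 1 and IPA 2 in 5 each.

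Other genes of both pathways, and genes of the wall-loosening proteins that elongating cells use, were taken from a list of descriptions. It matched 36 further transcripts of 19 genes in the authors' selection on these samples, so its counts are a description as well. Of the 19 gene sums 15 passed the threshold, all 15 higher in IPA, against 5.65% of all gene sums, and 4 did not pass. Of the 36 transcripts 25 passed, all 25 higher, against 4.49% of all transcripts. No further gibberellin signalling gene was matched (0 transcripts for GID2, SPINDLY, GAMYB, phytochrome-interacting factors and GRAS proteins).

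**Figure D5:**
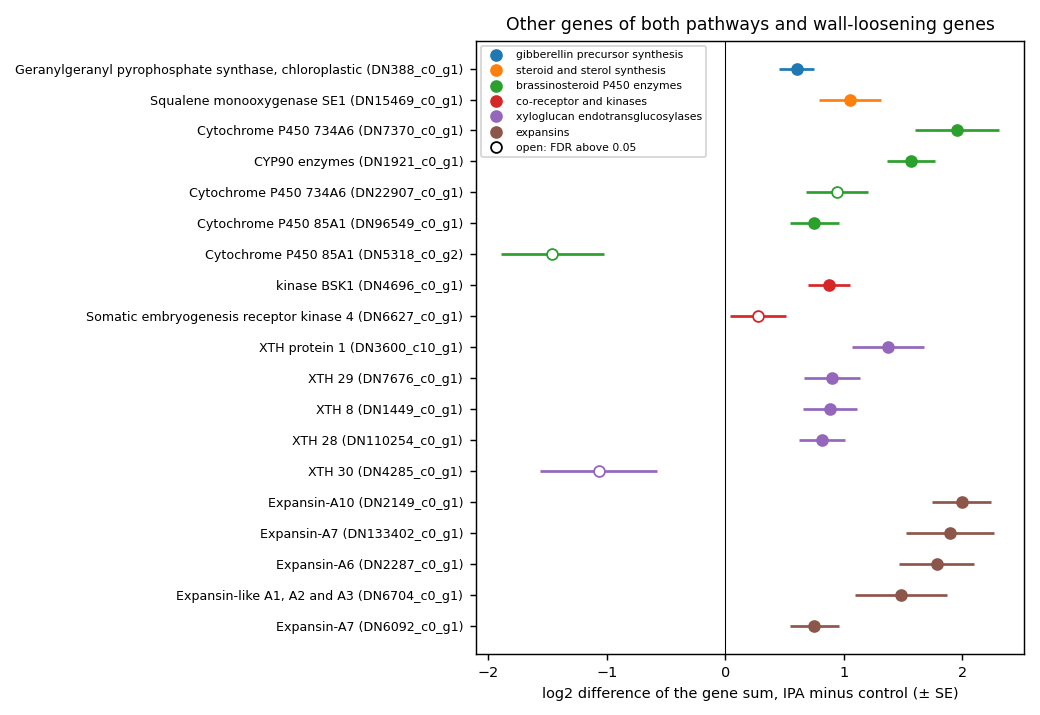
Log2 difference of the gene sum between IPA and control (± SE) for the 19 other genes of the list, coloured by group and open where the FDR was above 0.05 (XTH, xyloglucan endotransglucosylase/hydrolase). All 5 expansin sums lay above 0, from 0.75 to 1.996, and a CYP85A1 and an XTH 30 gene lay below 0 without passing the threshold.

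Upstream of gibberellins, the sum of a geranylgeranyl pyrophosphate synthase gene (DN388_c0_g1), whose product also feeds carotenoids and chlorophyll, was 45.3, 52.9 and 49.0 in control and 70.0, 81.6 and 72.8 in IPA (log2 0.60 ± 0.15). Squalene monooxygenase SE1 (DN15469_c0_g1), an enzyme of sterol synthesis upstream of brassinosteroids, was 11.4, 6.62 and 5.74 in control and 13.5, 17.2 and 18.3 in IPA (log2 1.05 ± 0.26). Both had groups that did not overlap, though control 1 of the latter came close to IPA 1.

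Cytochromes P450 of the CYP90 family, which includes brassinosteroid synthesis enzymes, were matched in the gene DN1921_c0_g1. Its descriptions were divided among several CYP90 enzymes, and 2 of them named cholesterol as the substrate. These were cholesterol 22-monohydroxylase CYP90B52 (1 transcript, matched) and cholesterol 16,22-dihydroxylase CYP90G4 (1 transcript, not matched). Whether the gene serves brassinosteroid synthesis was not tested. The list matched 4 of its 38 listed transcripts, and 33 more carried the description 3beta,22alpha-dihydroxysteroid 3-dehydrogenase, an activity of CYP90A1, which was noticed after the values were seen. All 41 transcripts of the gene were higher in IPA. The gene sum stood at 29.8, 34.1 and 27.7 in the controls and at 72.1, 86.4 and 122 in IPA (30.5 ± 3.30 and 93.4 ± 25.4, log2 1.57 ± 0.20). Near-identical family members may share reads here, so which CYP90 copy differed is uncertain.

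CYP734A6, of a family that inactivates brassinosteroids by hydroxylation, was higher too. Its gene DN7370_c0_g1 stood at 6.04, 11.6 and 8.81 in the controls and at 20.4, 35.1 and 57.5 in IPA (log2 1.96 ± 0.36). A scarce second gene of that name, DN22907_c0_g1, had a single transcript, at 0.337 ± 0.240 in control and 1.07 ± 0.228 in IPA. It passed the threshold in the fit across transcripts and did not in the fit across gene sums. CYP85A1, which catalyses late oxidation steps of brassinosteroid synthesis, was matched in 2 genes that differed in direction. DN5318_c0_g2 stood at 19.1, 7.03 and 4.32 in the controls and at 2.30, 2.78 and 3.21 in IPA (log2 -1.46 ± 0.44), without passing the threshold, and control 1 was far above the other controls. The scarce DN96549_c0_g1 was higher, at 0.196 ± 0.0530 and 0.683 ± 0.204 (log2 0.75 ± 0.21).

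Downstream of the brassinosteroid receptor, the gene of the kinase BSK1 (DN4696_c0_g1), a substrate of the receptor in Arabidopsis, stood at 113, 124 and 122 in the controls and at 179, 222 and 266 in IPA (log2 0.87 ± 0.18). Somatic embryogenesis receptor kinase 4 (DN6627_c0_g1), of the co-receptor family, had 1 of 25 transcripts listed and a gene sum of 15.4 ± 4.06 and 18.7 ± 3.96 whose groups overlapped.

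All 5 gene sums described as expansin or expansin-like passed the threshold and were higher in IPA. Expansins loosen cell walls without cutting them. The gene DN6704_c0_g1 was described as expansin-like only. Expansin-A10 (DN2149_c0_g1) stood at 13.1, 17.3 and 21.8 in the controls and at 51.2, 71.1 and 91.9 in IPA (log2 1.996 ± 0.25). Of 5 genes of xyloglucan endotransglucosylases, which cut and rejoin xyloglucan chains, 4 passed and were higher, with log2 differences of 0.82 to 1.37. The smallest of these was of the scarce protein 28 (DN110254_c0_g1), with 5, 4 and 0 reads in control and 16, 29 and 23 in IPA. The fifth, protein 30 (DN4285_c0_g1), stood at 114, 45.1 and 20.2 in the controls and at 18.0, 24.7 and 24.6 in IPA, and its groups overlapped because control 3 lay among the IPA values.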

How the data were processed

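The authors deposited a normalised read count per library (unit: signal) for 81787 transcripts of 28620 genes. Their deposited list of changed transcripts holds, per the file headers, log2 fold changes and average log2 CPM, with a score (LR), p-value and FDR per transcript. Per the labels' protocols, RNA of ground lyophilised plants was made into stranded mRNA libraries read as 150-bp pairs. FastQC, Trimmomatic, BWA, featureCounts and edgeR are named per the submitters' processing notes, and their versions and settings are not given in the sources used here. Each library's deposited values were whole multiples of 1 step (100% within 0.01 reads), so whole reads were recovered. Columns of other samples numbered 0.

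Groups came from the sample titles, and no batch was given. Transcripts, and sums over the transcripts of a gene, were filtered with filterByExpr (edgeR 4.0.16, minimum count 10, minimum total 15), which kept all 44 transcripts of the 9 genes. Values were fitted as log2(value + 0.5) with limma 3.58.1 (trend, robust; R 4.3.3) and adjusted over all features by Benjamini-Hochberg at 0.05. Alternatives were the edgeR quasi-likelihood test and DESeq2 1.42.0 on the reads, other pseudocounts and filters, library totals, a replicate block and each library left out. The limma step was also run on simulated reads with a common dispersion for all transcripts, a simpler setting than these samples. The threshold rests on the spread between these samples alone, and that spread may be technical.

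The members and lists were chosen with earlier results of these data known. Each member gene is named by its member transcript with the highest mean over the 6 libraries. Isoforms of a gene share sequence, so reads may be divided among them. Transcript lengths were not used, so levels are not compared between genes, and genome positions were not analysed here.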

Additional observations from a re-analysis of the deposited data

How the results depend on the processing

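Of 250 values of the named transcripts and gene sums under alternatives, 0 changed sign. The members were chosen for their difference in these same reads, so that count is a description. Genes with a single transcript entered it both as a transcript and as a sum. The count of all transcripts past the threshold was 6587, and 10358 with DESeq2, 11817 with library totals and 4377 with the replicate block; leaving out a library gave 1293 to 10421. Among the members the count was 17 (4 to 17 with a library left out), and 7 of the 9 gene sums passed (2 to 7). Without IPA 2 the counts were 1293, 4 and 2, and without control 2 they were 1519, 6 and 2. The cause was not tested. The log2 difference of DN11609_c0_g1_i1, a transcript with few reads, ranged from 0.53 to 1.74 over the alternatives that kept all libraries. Deviations of same-numbered libraries from their group means had correlations of -0.09, 0.08 and -0.13, and those of other pairs ran from -0.09 to 0.13. With 3 libraries in a group, such values cannot tell whether same-numbered libraries were paired. With the replicate block 17 members and 6 of the 9 gene sums passed.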
